A study of Homo sapiens with 3 samples.

Results

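The genes described here drive or restrain the passage of a cell from G1 into S phase. They were the D-type cyclins CCND1, CCND2 and CCND3, the E-type cyclins CCNE1 and CCNE2, the cyclin-dependent kinases CDK4, CDK6 and CDK2, the phosphatase CDC25A and the retinoblastoma protein RB1. Their probes were taken by name alone, as the transcript probes of the array that carry one of these 10 gene names. The genes themselves were chosen with earlier results of these data known. They comprise 10 of the 43317 gene names and 11 of the 58201 transcript probes, since CCNE2 has 2 probes and each other gene has 1. RB1 is the only protein of the retinoblastoma family among them, and its relatives RBL1 and RBL2 were read separately.

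Expression was measured in HCT116 cells, a human colorectal cancer cell line, after transfection with small interfering RNA (siRNA). The analysis used 1 array each of SMARCA4-KD1 cells, of SMARCA4-KD2 cells and of cells given the scrambled negative control (NC). SMARCA4, also called BRG1, is an ATPase of the SWI/SNF complexes, which move nucleosomes along DNA. All 3 samples were the same line in the same medium with the same transfection reagent, and the sources used here do not give the time between transfection and RNA extraction. The study's text names a second control sample, which was not analysed here. The question for this group of genes was which of them had a higher or lower signal when SMARCA4 was depleted. The labels list 2 siRNAs against SMARCA4 and do not state which one went to which array. The first is shown, 5′ to 3′ and in RNA letters, because every comparison rests on the knockdown:
SMARCA4 siRNA-1: ucgcuuugguucgcaaauc

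The sample titles name SMARCA4 and the treatment labels name PRMT1, so both genes were read first. The SMARCA4 probe (chr19:11172673-11172732, hg19) read 14026 in NC, 3960 in SMARCA4-KD1 and 4129 in SMARCA4-KD2, so that 26.6% and 28.8% of the NC level was left. PRMT1 had log2 fold changes of 0.27 and 0.37. Each array carried 62976 spots, and between 45.7% and 47.3% of the probes were well above background. Of 9 colorectal epithelial marker genes, 6 were well above background on all arrays (EPCAM, KRT8, KRT18, KRT19, CDH1 and CDX2), and VIL1, CDH17 and LGALS4 were well above background on none. The summed signal of these 9 genes ran from 369613 to 397878. Well above background on all arrays were also 1 of 5 fibroblast markers (COL1A1) and 2 of 3 endothelial markers (VWF and CDH5), with summed signals of 363 to 491 and 66.4 to 117 for these lists, and their part in the results was not tested. Slide 1 held both knockdown arrays and slide 2, scanned on its own, held NC, so that slide and knockdown cannot be told apart. Both knockdowns were also compared with the same NC array.

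In G1, growth signals raise the D-type cyclins, which bind CDK4 or CDK6 and begin to phosphorylate RB1. RB1 in its unphosphorylated form holds E2F transcription factors inactive, and its release from them permits transcription of CCNE1, CCNE2 and the genes of DNA replication. Cyclin E with CDK2 then completes the phosphorylation of RB1, and CDC25A removes the inhibitory phosphates that keep CDK2 inactive. Amplified or overexpressed cyclin D, CDK4 or CDK6 and loss of RB1 are common in human tumours.

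The arrays read each transcript through a probe of 60 bases. The first 30 bases of the probes that the results turn on are given here 5′ to 3′, as the array files list them, to show which stretch of each transcript was measured:
CCND1: gctctattccaaaaaggttgctgtttcaca
CCND3: atttaatgcatgatagacacatatgagggg
CCNE1: gggctgccctctccacattatcagttgaca
CDK6: ttggtgttgaaatatcactgtccaatgtgt
CDC25A: tgatgaatcatcaccggttgtccccttatc
RB1: gtgccagaattttaggaacttcagagatcg

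Of the 10 genes, 9 were well above background on all 3 arrays, and none of their spots was saturated. These 9 fell into 3 kinds. CCND1, CCND3 and CCNE2 had a lower signal in both knockdowns than in NC, CDK6, CDC25A and CCNE1 had a higher signal in both, and CDK2, CDK4 and RB1 lay closer to NC. Signals are the background-subtracted intensities of the array files. Fold changes were computed on log2 signals after subtraction of the 75th percentile of each array. An error of a fold change combines the errors that the extraction software gave for both spots. It was 0.20 for each of the 9 genes by the brighter or only probe, and so does not show how precisely a single gene was measured. A gene was counted as different at 1.5-fold, which is 0.58 on the log2 scale. The study's methods use this size together with a limit on the p-value, which was not applied in these counts. In a pooled culture, fewer cells in one phase of the cycle and less RNA of a gene in every cell cannot be told apart.

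**Figure D1:**
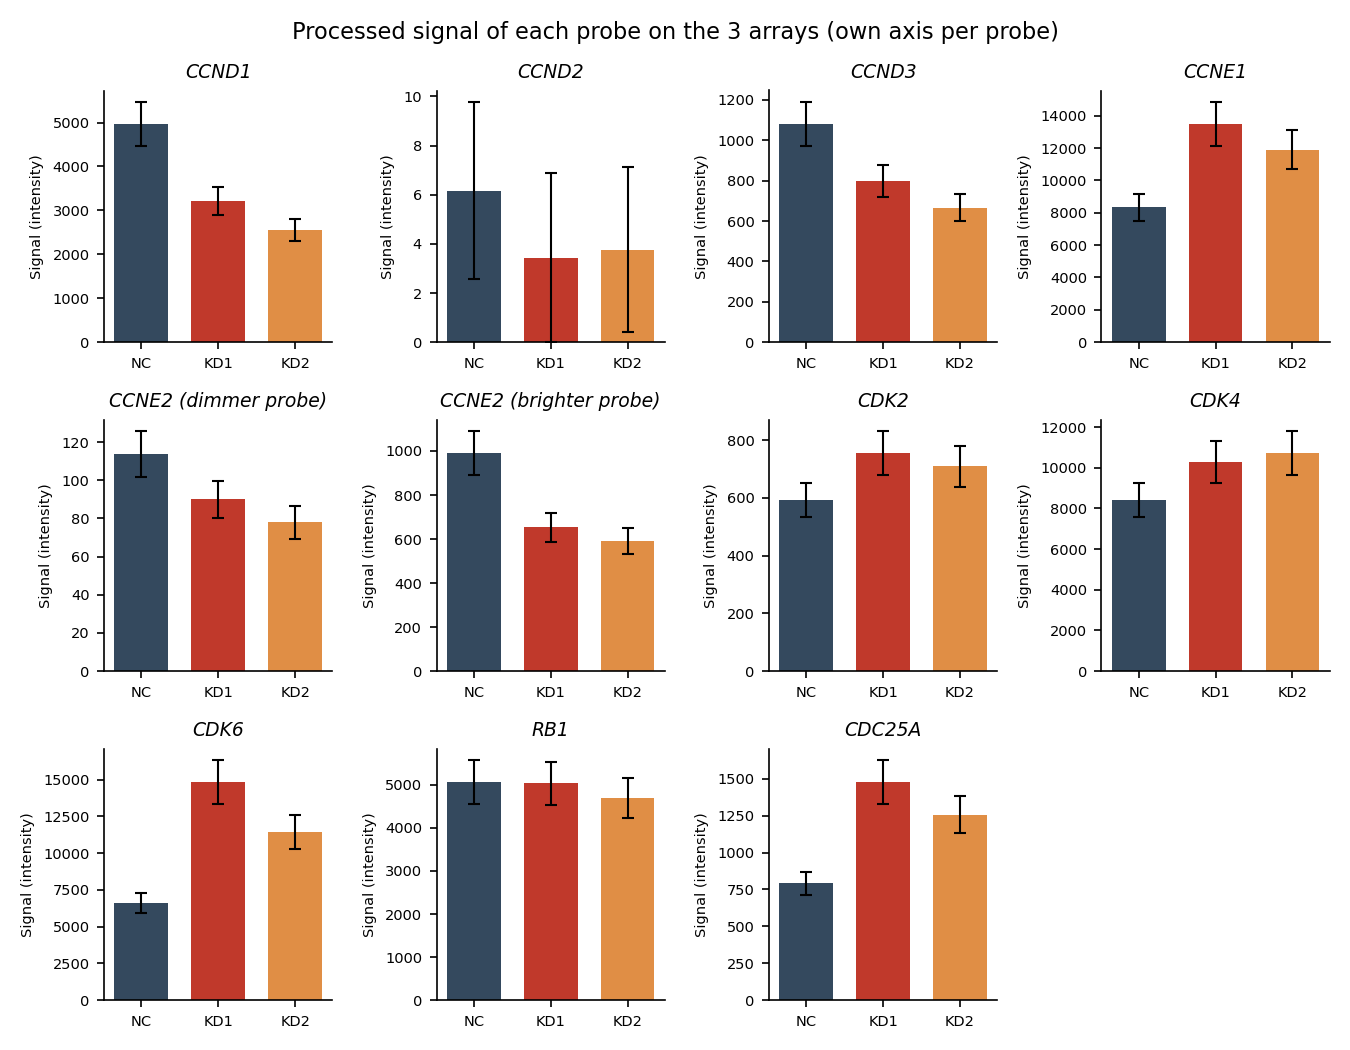
Processed signal (intensity, own axis for each probe) of the 11 probes in NC, SMARCA4-KD1 and SMARCA4-KD2, with 1 array per bar and error bars that are the extraction software's error of the signal. CCND1, CCND3 and both CCNE2 probes are highest in NC, CDK6, CDC25A and CCNE1 are lowest in NC, and the CCND2 signal is of the size of its error.

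Among the D-type cyclins, CCND1 was the lowest relative to NC. CCND1 is the main D-type cyclin of many epithelial cells and a target of growth factor signaling. Its probe (chr11:69468233-69468292, hg19, plus strand) read 4960 ± 496 in NC cells, 3206 ± 321 in SMARCA4-KD1 cells and 2549 ± 255 in SMARCA4-KD2 cells, each with the error of the extraction software. Both knockdowns lay below NC by more than these errors. The level was 1.64-fold lower in SMARCA4-KD1, a log2 fold change of -0.71 ± 0.20, and 1.99-fold lower in SMARCA4-KD2, at -0.99 ± 0.20. Of all 22619 genes measured, 4.51% had a lower mean change over both knockdowns.

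The CCND1 and RB1 probes were among the few printed on 10 spots of each array, so that their technical spread could be read directly. After outlier spots were left out, CCND1 had 7 spots from 3170 to 3304 with a median of 3187 in SMARCA4-KD1 cells, 9 spots from 2476 to 2587 with a median of 2554 in SMARCA4-KD2 cells, and 9 spots from 4801 to 5113 with a median of 4965 in NC. The 3 arrays did not overlap in any CCND1 spot. Within an array the SD of these spots was 0.021, 0.022 and 0.029 on the log2 scale for SMARCA4-KD1, SMARCA4-KD2 and NC. These spots repeat the reading of 1 RNA sample and are not replicates of the knockdown.

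CCND3, a D-type cyclin with the same kinase partners, was also lower. Its probe (chr6:41903193-41903252, hg19, minus strand) read 1079 ± 108 in NC, 798 ± 79.9 in SMARCA4-KD1 cells and 666 ± 66.7 in SMARCA4-KD2 cells. The log2 fold change was -0.52 ± 0.20 in SMARCA4-KD1, or 1.43-fold lower, and -0.73 ± 0.20 in SMARCA4-KD2, or 1.66-fold lower. Only the change in SMARCA4-KD2 reached 1.5-fold. CCND2 (chr12:4414040-4414099, hg19, plus strand) had signals of 6.16 ± 3.59, 3.44 ± 3.45 and 3.77 ± 3.35 in NC, SMARCA4-KD1 and SMARCA4-KD2. It was not well above background on any array, so no fold change is given, and these values do not show whether the transcript was absent.

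The E-type cyclins differed in direction. CCNE1, the cyclin that activates CDK2 at the start of S phase, had a higher signal in both knockdowns. Its probe (chr19:30315106-30315165, hg19, plus strand) read 8346 ± 835 in NC, 13475 ± 1347 in SMARCA4-KD1 and 11909 ± 1191 in SMARCA4-KD2. Relative to NC it was 1.52-fold higher in SMARCA4-KD1, a log2 fold change of 0.61 ± 0.20, and 1.40-fold higher in SMARCA4-KD2, at 0.48 ± 0.20. Its change in SMARCA4-KD1 lay just past 1.5-fold. It fell short at 0.46 under quantile normalization and at 0.55 with the percentile taken over detected probes.

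CCNE2, the second E-type cyclin with the same kinase partner, had a lower signal in both knockdowns. Its brighter probe (chr8:95892618-95892677, hg19, minus strand) read 990 ± 99.0 in NC, 654 ± 65.5 in SMARCA4-KD1 and 592 ± 59.3 in SMARCA4-KD2. These are log2 fold changes of -0.68 ± 0.20 and -0.77 ± 0.20, or 1.60-fold and 1.71-fold lower. The other probe (chr8:95894361-95894420, hg19) read 114 ± 12, 90.1 ± 9.69 and 78.0 ± 8.52 in the same order. It gave the same direction with smaller log2 fold changes of -0.42 ± 0.22 and -0.57 ± 0.22, neither of which reached 1.5-fold. The call of CCNE2 therefore depended on the probe in both knockdowns. The mean of both probes was -0.55 in SMARCA4-KD1, short of 1.5-fold, and -0.67 in SMARCA4-KD2, past it.

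Of the 3 kinases, CDK6 had the largest change in both knockdowns. CDK6 is a partner of the D-type cyclins and phosphorylates RB1 early in G1. Its probe (chr7:92234443-92234502, hg19, minus strand) read 6621 ± 662 in NC, 14824 ± 1482 in SMARCA4-KD1 and 11455 ± 1146 in SMARCA4-KD2. Relative to NC it was 2.11-fold higher in SMARCA4-KD1, a log2 fold change of 1.08 ± 0.20, and 1.69-fold higher in SMARCA4-KD2, at 0.76 ± 0.20. Of all genes measured, 96.8% had a lower mean change.

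CDK4, the other kinase of the D-type cyclins, differed much less. Its probe (chr12:58142263-58142322, hg19, minus strand) read 8418 ± 842 in NC, 10289 ± 1029 in SMARCA4-KD1 cells and 10712 ± 1071 in SMARCA4-KD2 cells. The log2 fold changes were 0.21 ± 0.20 and 0.32 ± 0.20, of about the size of the software's error, and quantile normalization gave 0.048 and 0.19. CDK2, the kinase of the E-type cyclins, had signals of 593 ± 59.4, 755 ± 75.6 and 710 ± 71.0 in NC, SMARCA4-KD1 and SMARCA4-KD2 (chr12:56365789-56365848, hg19, plus strand). Its log2 fold changes of 0.26 ± 0.20 and 0.23 ± 0.20 were also short of 1.5-fold.

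CDC25A, the phosphatase that activates cyclin E with CDK2, had a higher signal in both knockdowns. Its probe (chr3:48199124-48199183, hg19, minus strand) read 791 ± 79.2 in NC, 1476 ± 148 in SMARCA4-KD1 and 1257 ± 126 in SMARCA4-KD2. Relative to NC it was 1.76-fold higher in SMARCA4-KD1, a log2 fold change of 0.81 ± 0.20, and 1.55-fold higher in SMARCA4-KD2, at 0.64 ± 0.20. The change in SMARCA4-KD2 fell short of 1.5-fold at 0.55 under normexp background correction.

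RB1, the tumour suppressor that these kinases phosphorylate, was close to its NC level. Its probe (chr13:49055845-49055904, hg19, plus strand) read 5058 ± 506 in NC, 5034 ± 503 in SMARCA4-KD1 cells and 4690 ± 469 in SMARCA4-KD2 cells. The log2 fold changes of -0.09 ± 0.20 and -0.14 ± 0.20 were smaller than the software's error, which was 0.20 for all 9 genes. Within an array the SD of the repeated RB1 spots was smaller, from 0.017 to 0.027 on the log2 scale. Its 9 spots per array ran from 4964 to 5162 in SMARCA4-KD1, from 4579 to 4774 in SMARCA4-KD2 and from 4888 to 5205 in NC. Before scaling, the spots of SMARCA4-KD1 and NC overlapped, and those of SMARCA4-KD2 lay below both. Both other pocket proteins, which bind E2F factors much as RB1 does, were also within 1.5-fold of NC. For RBL1 the brighter probe gave log2 fold changes of -0.08 and -0.14 and the other probe 0.20 and 0.26, and for RBL2 they were -0.20 and 0.03. The other RBL1 probe was dim, at 33.2 in NC. The arrays measure transcripts and give no information on the phosphorylation of these proteins or on kinase activity.

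At 1.5-fold in SMARCA4-KD1, CCND1 and CCNE2 were lower, 2 of the 9 genes, where 12.2% of all genes were lower. CDK6, CDC25A and CCNE1 were higher, 3 of 9, against 11.2% of all genes. In SMARCA4-KD2, CCND1, CCND3 and CCNE2 were lower, 3 of 9 against 9.74% of all genes, and CDK6 and CDC25A were higher, 2 of 9 against 10.1%. In both knockdowns CCND1 and, by its brighter probe only, CCNE2 were lower, 2 of 9 against 8.02% of all genes. CDK6 and CDC25A were higher in both, 2 of 9 against 6.36%. Every one of these shares of a group as small as 9 changes greatly with 1 gene. Over the 9 genes the median log2 fold change was 0.21 for the first knockdown and 0.23 for the second, beside medians of -0.002 and 0.02 over all genes, and these medians summarise genes that lay on both sides of 0.

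The knockdowns differed from each other by less than either differed from NC for the genes past 1.5-fold in both. This is not a test of agreement, because these genes were picked for 2 changes past 1.5-fold on 1 side of the same NC array. The largest gap between the knockdown arrays was 0.32 ± 0.20 on the log2 scale for CDK6, higher in SMARCA4-KD1, followed by 0.28 ± 0.20 for CCND1. CDC25A differed by 0.18 ± 0.20 and CCNE2 by 0.09 ± 0.20 between the knockdowns. Over all genes the SD of this gap was 0.43 and the median of its absolute value was 0.13. These arrays shared a slide, which was not the case for either comparison with NC.

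Both knockdowns were then set together against NC in limma, a linear model fitted over all 22619 genes with a spread shared between genes. With 1 residual degree of freedom, its p-values measure only the spread between the 2 knockdown arrays, and the NC array was taken to vary like them. No gene of the 9 reached an adjusted p under 0.05 in limma with Benjamini-Hochberg adjustment, and neither did any other gene (0% of all genes). The adjusted p in limma ran from 0.0761 for CCNE2 to 0.392 for RB1, and the smallest of any gene was 0.0742. At an unadjusted p under 0.05 limma gave 6 of the 9 genes, where 31.4% of all genes passed, and at an unadjusted p under 0.01 with 1.5-fold it gave 3 of 9 against 9.28%. These 3 were CCND1, CCNE2 and CDC25A.

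The limma call depended on which genes were fitted and, with the same genes, on how their values were processed, as listed in the last section. When only probes well above background on all 3 arrays were kept, the fold changes of the 9 genes were the same values, but 26.5% of the 19503 genes left had an adjusted p under 0.05 in limma. In that fit 6 of the 9 genes passed. The adjusted p in limma was 0.00452 for CDK6, 0.00516 for CCND1, 0.00698 for CCNE2, 0.00756 for CDC25A, 0.0101 for CCNE1 and 0.0160 for CCND3. CDK4 at 0.104, CDK2 at 0.188 and RB1 at 0.444 did not pass by limma's adjusted p in that fit.

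The other genes of the G1 to S pathway were read from 8 lists with 61 genes, all of them measured. At 1.5-fold, both knockdowns were lower for 11 of these 61 genes, where 8.02% of all genes were lower, and higher for 4, where 6.36% of all genes were higher. Each single list holds few genes. The median of their mean log2 fold change was -0.15, beside 0.03 over all genes.

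Growth-induced transcription factors act upstream of the D-type cyclins, and MYC, JUN, FOS and EGR1 are the best known of them. The list also holds FOSL1, ETS2, CTNNB1 and TCF7L2. In this list 3 of 8 genes passed 1.5-fold upwards in both knockdowns, against 6.36% of all genes, and none downwards, against 8.02%. The median of the list was 0.57. Of the 8 genes, 5 lay above 0 in both knockdowns, 1 lay below 0 in both and 2 had opposite signs. JUN, an AP-1 subunit, had log2 fold changes of 1.81 and 1.58 in SMARCA4-KD1 and SMARCA4-KD2. EGR1, an immediate-early zinc finger factor, had 1.24 and 1.28, and FOS, the AP-1 partner of JUN, had 1.06 and 1.13. MYC was 1.71-fold higher in SMARCA4-KD1 and 1.49-fold higher in SMARCA4-KD2. It fell short of 1.5-fold in SMARCA4-KD2 and is named after its values were seen. CCND1, itself a gene that AP-1 can activate, was lower in the same arrays.

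CDK inhibitors bind the kinases directly. Of 7, CDKN2C and CDKN2D were at least 1.5-fold lower in both knockdowns, against 8.02% of all genes, and CDKN1A was higher, against 6.36%. CDKN2C, which encodes the CDK4 and CDK6 inhibitor p18, had log2 fold changes of -1.42 and -1.12. CDKN2D, which encodes the related inhibitor p19, had -0.88 and -0.81. CDKN1A, which encodes the broad inhibitor p21, had 1.06 and 0.73. The list as a whole had a median of -0.24, with genes on both sides of 0.

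The next list held CDK-activating kinase, the other CDC25 phosphatases and WEE1 kinases. Of its 7 genes, none was at least 1.5-fold higher in both knockdowns, against 6.36% of all genes, and 1 was lower, against 8.02%. This was CDC25C, the phosphatase that activates CDK1 at entry to mitosis, with log2 fold changes of -1.35 and -1.26, opposite in sign to CDC25A. WEE1, a kinase that inhibits CDK1, had the largest change among the others at -0.35 and -0.30. Another 7 genes govern the turnover of G1 cyclins and inhibitors. Of these, only FBXO4 was at least 1.5-fold lower in both knockdowns, against 8.02% of all genes, and none was higher, against 6.36%. FBXO4, an F-box protein implicated in cyclin D1 degradation, had log2 fold changes of -0.91 and -0.91. AMBRA1, an adaptor for the ubiquitination of D-type cyclins, had 0.26 and 0.32 by its brighter probe and -0.77 and -0.29 by its other probe, which disagree in sign. The other AMBRA1 probe was dim, at 35.1 in NC, 21.8 in SMARCA4-KD1 and 29.3 in SMARCA4-KD2. Its brighter probe read 1547 in NC.

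Downstream of RB1, the E2F and DP factors had a median of -0.00289 over 10 genes. E2F8, a repressor of the family, had -0.76 and -0.65. It alone of the 10 was at least 1.5-fold lower in both knockdowns, against 8.02% of all genes, and none was higher, against 6.36%. E2F7, the related repressor, had -0.50 and -0.71 by its brighter probe and -0.06 and -0.70 by its other probe. That other probe was dim, at 50.4 in NC. Of 15 E2F target genes of S phase entry, 3 were at least 1.5-fold lower in both knockdowns, against 8.02% of all genes, and none was higher, against 6.36%, with a median of -0.31. Among them, MCM5, a subunit of the replicative helicase, had -0.68 and -0.66, and TK1, thymidine kinase, had -0.63 and -0.64. CCNE1 and CDC25A, which E2F factors can also activate, were higher in the same arrays. CCNE2, which E2F factors can activate as well, was lower, at -0.68 and -0.77 by its brighter probe.

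The cyclins of S and M phase and CDK1 were the list with the lowest median, -0.75. All 5 genes were at least 1.5-fold lower in SMARCA4-KD1, against 12.2% of all genes, and 3 of the 5 in both knockdowns, against 8.02%. CCNF, an F-box cyclin, had log2 fold changes of -0.80 and -0.91. CDK1, the kinase of mitotic entry, had -0.81 and -0.79. CCNB1, its cyclin, had -0.82 and -0.69 by its brighter probe and -0.26 and -0.33 by its other probe. The other two, CCNA2 at -0.66 and -0.53 and CCNB2 at -0.74 and -0.58, fell short of 1.5-fold in SMARCA4-KD2 and are named after their values were seen.

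Promoter sequences from RefSeq on GRCh38.p14 were available for 6 of the 10 genes, in 9 windows of 300 bases that run from 250 before to 50 after a transcript start. They were read on both strands for the E2F letters TTTCCCGC, TTTCGCGC, TTTGCCGC and TTTGGCGC and for the E-box CACGTG, the letters that MYC with MAX can bind. The E2F letters occur in 3.31% of all 35116 windows and the E-box in 7.26%. Among the 9 windows, 1 held E2F letters, that of CDC25A at -44 from the start, and 2 held an E-box, those of CDK4 at -216, -196 and -101 and of one start of CDK6 at 31. Of the 12 E2F target genes above with a window, 9 held E2F letters. The 250 bases before the start are printed for CDC25A (chr3:48188418-48188667, minus strand, GRCh38.p14) and CDK4 (chr12:57752311-57752560, minus strand, GRCh38.p14), which hold these letters in capitals:
CDC25A: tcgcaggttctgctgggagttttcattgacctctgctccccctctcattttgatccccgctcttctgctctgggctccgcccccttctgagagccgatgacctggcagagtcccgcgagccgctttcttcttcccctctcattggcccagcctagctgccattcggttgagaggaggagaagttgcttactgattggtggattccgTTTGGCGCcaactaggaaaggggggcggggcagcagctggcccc
CDK4: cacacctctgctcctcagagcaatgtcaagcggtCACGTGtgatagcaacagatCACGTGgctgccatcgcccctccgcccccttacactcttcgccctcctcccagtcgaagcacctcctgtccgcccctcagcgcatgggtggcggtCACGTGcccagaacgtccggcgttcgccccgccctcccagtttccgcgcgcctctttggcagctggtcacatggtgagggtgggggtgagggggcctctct
CDC25A, with E2F letters, was 1.76-fold and 1.55-fold higher in the knockdowns, and CDK4, with 3 E-boxes, was 1.15-fold and 1.24-fold higher. CDK6, with an E-box at one start, was 2.11-fold and 1.69-fold higher. The E2F target list, where 9 of 12 genes with a window held E2F letters, had a median of -0.31. CCND1, CCND2, CCNE2 and CDK2 had no window and were not read. A link between letters and change was not tested. A match of letters is a description of the sequence and not a binding site, and these arrays hold no measure of binding.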

How the data were processed

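Cy3-labelled RNA of 3 HCT116 samples was read on 1-colour Agilent arrays (SurePrint G3 Human Gene Expression v3). The deposited files hold the intensity of each spot, made by the authors with Agilent Feature Extraction (version 10.7.1.1 in the submitters' processing notes), which subtracts background and does not scale arrays to each other. A table of processed intensity values that the authors also deposited was equal within 0.1% for 57870 of 57871 probes with 1 spot. Gene names and hg19 positions were taken from the array files, and exon or UTR annotation was not used here.

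Control and outlier spots (83 to 230 outliers per array) were dropped, spots of 1 probe were averaged, and the 75th percentile of the array (an intensity of 223 to 237) was subtracted from log2 of the deposited intensity. Values that were not well above background received as a floor the dimmest level that was. The filter asked for 1 array well above background (29333 probes), and each of 22619 genes was represented by its brightest probe. Fewer than 50% of probes were detected, and the percentile over detected probes was an alternative. With 1 array per condition a fold change has no replicate check, and precision is limited by the number of arrays. The number of each knockdown and the NC group came from the treatment labels, and the name SMARCA4 came from the sample titles. limma 3.58.1 (R 4.3.3) was run with an intensity trend, and other steps used Python 3.11.15, numpy 2.4.6, pandas 2.3.3 and matplotlib 3.10.9. The steps were tested on simulated data.

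The genes and lists were chosen with earlier results of these data known. Named were all 10 genes with every probe, RBL1 and RBL2, SMARCA4 and PRMT1, and of each other list up to 4 genes at least 1.5-fold apart in 1 direction in both knockdowns, by the smaller change, or, where fewer than 2 passed, also the gene with the largest mean change without a call. Of these, the siRNAs and the marker lists, 1 siRNA sequence, 1 gene of the E2F target list that the rule names and 1 marker list are not reported here. The alternatives were quantile normalization, normexp with an offset of 50, the percentile over detected probes, no floor, no filter or one on all arrays, the probes' mean per gene, the authors' table, 2-fold, limma without a trend or with unadjusted p, and the methods' t-test.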

Additional observations from a re-analysis of the deposited data

Results flagged for a closer look

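RBL2, a pocket protein related to RB1, lay on opposite sides of NC in the 2 knockdowns, with log2 fold changes of -0.20 for SMARCA4-KD1 and 0.0348 for SMARCA4-KD2. The difference was not tested. Its signal was 579 in NC, 534 in SMARCA4-KD1 cells and 606 in SMARCA4-KD2 cells, and both changes were within the error of 0.20 that the extraction software gives.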

How the results depend on the processing

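All 144 values of the 9 genes' log2 fold changes under 8 alternatives kept their sign and moved by less than 0.20. Many of these values could not move. Each gene was well above background on every array, so the filters and the floor did not touch it. The authors' table held nearly the same intensities, and the mean over probes could change only CCNE2. Quantile normalization, normexp and the percentile over detected probes could move all 9 genes. The count of the 9 genes with an adjusted p under 0.05 in limma, 0 as reported, was 2 with the 75th percentile taken over detected probes, 4 under quantile normalization, 6 with normexp, with the filter on all arrays, with no floor and with the authors' table, 8 of all 10 without a filter, where CCND2 enters as 1 of the 8 and values at the floor have no spread, and 3 at an unadjusted p under 0.01 with 1.5-fold. limma called 0 genes of all as reported and from 1598 to 31028 under those 7 alternatives, and 0 with the mean over probes. limma without a trend called 0 of the 9 genes. The methods' t-test gave 0 genes at an adjusted p of 0.05 and 3223 at an unadjusted p of 0.05, none of them among the 9. Under normexp, 1 of the 9 genes was higher in SMARCA4-KD2 and 1 in both knockdowns. Under quantile normalization and with the percentile over detected probes, 2 of the 9 genes were higher in SMARCA4-KD1. With the mean over probes, 1 was lower in SMARCA4-KD1 and 1 in both. At 2-fold, 0 genes were lower and 1 was higher in SMARCA4-KD1, 0 were lower and 0 were higher in SMARCA4-KD2, 0 were lower and 0 were higher in both, and 2 genes of the other lists were lower in both. Under quantile normalization 5 E2F target genes were lower in both knockdowns. Without a filter the median of all genes was -0.15 for SMARCA4-KD1 and -0.14 for SMARCA4-KD2, a shift of over 0.1. The cause of these moves was not tested beyond what is stated. No paired analysis was possible because 1 array of each condition was analysed. CCND2 lay below what the signal over background could resolve.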
